A study of Mus musculus with 6 samples.

Results

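Wdfy1 was followed as 1 gene of 27998 in a table of unique molecular identifier (UMI) counts from single dorsal root ganglion neurons of 6 mice, and it was described in every mouse and in each of 8 marker-gated neuron types. It had been chosen because it was raised in more neuron classes of Ttpa-/- mice than any other gene, so its difference between genotypes is given as values and folds with no test. Its levels across neuron types, and its levels between the diets of Ttpa-/- mice, were not used in that choice and were tested.

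The groups were Ttpa-/- mice on a vitamin E deficient diet (mouse 654, female, and mouse 657, male, both 6 months old), Ttpa-/- mice on a vitamin E supplemented diet (mouse 670, male, and mouse 671, female, both 6 months old) and Ttpa+/+ mice labelled as basal (mouse 698, female, and mouse 699, male, both 5 months old). Ttpa encodes the alpha-tocopherol transfer protein, with which the liver keeps vitamin E in the circulation. Genotype, age and the basal diet go together in these groups and cannot be told apart. The labels give neither the mouse strain nor the deleted stretch of Ttpa, and Ttpa itself did not check them: it had 4, 5, 1 and 4 UMIs in neurons of mice 654, 657, 670 and 671 (Ttpa-/-) and 0 UMIs in mice 698 and 699 (Ttpa+/+), so the genotypes rest on the labels alone.

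Wdfy1 encodes a protein of WD40 repeats with a FYVE zinc finger, a fold that binds the lipid phosphatidylinositol 3-phosphate and holds its carrier on early endosomes. In cultured cells and immune cells the protein is also known as an adaptor that brings the signalling protein TRIF to the Toll-like receptors TLR3 and TLR4, a route that ends in interferon and inflammatory genes. Sensory neurons of the ganglion move endosomes over long axons, and they differ by type in which receptors those endosomes carry. In the GENCODE M21 annotation of mm10, the build named in the submitters' processing notes, Wdfy1 (ENSMUSG00000073643.11) lies on chromosome 1 from 79702262 to 79776143 on the minus strand. It has 14 annotated transcripts, 9 of them protein coding, and the full-length form has 12 exons and 410 codons. Mrpl44, a mitochondrial ribosomal protein gene on the plus strand, overlaps its 5' end.

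After filters, 20881 neurons were kept and 17573 of them (84.2%) fell into 1 of 8 types. The types were PEP (unmyelinated peptidergic nociceptors), PEP2 (myelinated peptidergic nociceptors), NP1 (Mrgprd nociceptors), NP2 (Mrgpra3 itch neurons), NP3 (Sst and Nppb itch neurons), TH (C-fibre low-threshold mechanoreceptors), TRPM8 (cold-sensing neurons) and NF (large myelinated neurons). The gates were scored on their own markers, so higher shares of these describe the gates and do not check them. Mrgprd had a UMI in 54.3% of NP1 cells and 0.363% of other gated cells, and Nppb in 87.3% of NP3 cells and 0.248% of others. Nefm had one in 96.3% of NF cells and 38.9% of others, and Tac1 in 97.5% of PEP cells and 43.9% of others. Not every marker set its type apart. Calcb had a UMI in 57.2% of PEP cells and 55.2% of others, and Lpar5 in 0.0336% of NP1 cells. The weakest gates were NP2, which rested mainly on Mrgpra3 (84.7% of its cells against 1.01% of others), and TRPM8, where Trpm8 itself had a UMI in 5.59% of cells and the gate rested on Cdh8 (59.2%) and Foxp2 (45.8%). Neurons of each mouse held 12056326 to 18563494 UMIs in all, with a median of 2520 to 4947.5 UMIs per neuron, and the deepest cells were those of mouse 657. Of 21424 barcodes, 261 occurred in 2 or more libraries. Wdfy1 was a sparse transcript, with 3355 UMIs over all neurons and at most 4 in any cell.

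Over all neurons Wdfy1 was higher in every Ttpa-/- mouse than in both Ttpa+/+ mice. It stood at 36.3 counts per 1000000 UMIs (CPM) in mouse 654 and 65.3 CPM in mouse 657 on the deficient diet, at 37.0 CPM in mouse 670 and 46.7 CPM in mouse 671 on the supplemented diet, and at 15.4 CPM in mouse 698 and 14.2 CPM in mouse 699, the Ttpa+/+ mice. These levels came from 482, 1154, 446 and 750 Wdfy1 UMIs in the Ttpa-/- mice and from 259 and 264 in the Ttpa+/+ mice. The means were 46.3 ± 13.5 CPM in Ttpa-/- mice (SD, n = 4) and 14.8 ± 0.82 CPM in Ttpa+/+ mice (SD, n = 2), a log2 fold of 1.62 ± 0.22 (SE), or 3.08 times. The groups did not overlap, the Ttpa+/+ mice lay close together, and mouse 657 stood above the other 3 Ttpa-/- mice; without mouse 657 the log2 fold was 1.37 and without mouse 654 it was 1.81. In this comparison 6.37% of 13364 genes tested had every Ttpa-/- mouse above both Ttpa+/+ mice; Wdfy1 was chosen from this contrast, so nothing is read from its being among them.

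**Figure D1:**
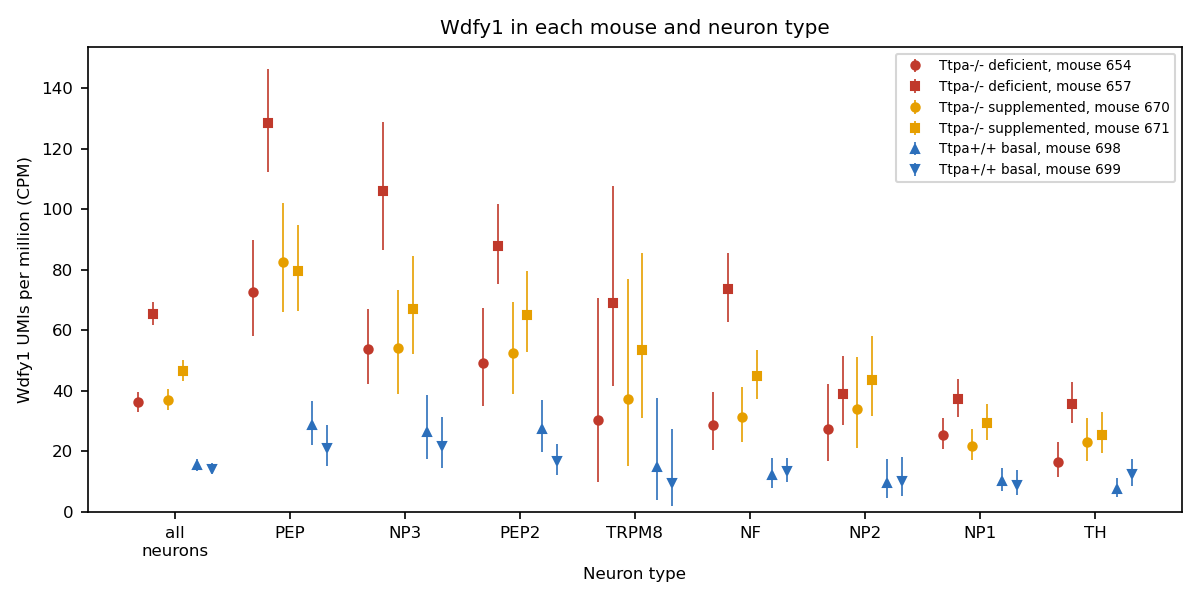
Wdfy1 in CPM (vertical axis) in all neurons and in each gated type (horizontal axis), 1 point per mouse with an exact 95% Poisson interval that covers counting error only. In each of the 8 types the 4 Ttpa-/- points lie above both Ttpa+/+ points, PEP neurons carry the highest levels, and the widest intervals are those of TRPM8 neurons.

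The same order of genotypes held in each type. In PEP neurons, which release the peptides CGRP and substance P and signal heat and injury, Wdfy1 stood at 72.7 and 129 CPM in deficient mice 654 and 657, at 82.7 and 79.7 CPM in supplemented mice 670 and 671, and at 28.7 and 21.1 CPM in Ttpa+/+ mice 698 and 699. All 4 Ttpa-/- mice were at least as high as 72.7 CPM and neither Ttpa+/+ mouse passed 28.7 CPM. The log2 fold of Ttpa-/- over Ttpa+/+ was 1.82 ± 0.21, from 522 Wdfy1 UMIs against 102.

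In PEP2 neurons, the fast-conducting peptidergic cells, the levels were 49.3, 87.9, 52.5 and 65.2 CPM in Ttpa-/- mice 654, 657, 670 and 671 and 27.3 and 16.8 CPM in Ttpa+/+ mice 698 and 699, a log2 fold of 1.60 ± 0.23. Here the Ttpa+/+ mice differed from each other more than in the pooled neurons. In NP3 neurons, which make somatostatin and natriuretic polypeptide B and carry itch, they were 53.7, 106, 54.2 and 67.0 CPM against 26.5 and 21.8 CPM, a log2 fold of 1.48 ± 0.27. Mouse 657 was again far above the other 3 Ttpa-/- mice, which lay within 53.7 to 67.0 CPM.

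In NF neurons, the large myelinated cells of touch and body position, Wdfy1 stood at 28.8, 73.5, 31.2 and 44.7 CPM in Ttpa-/- mice 654, 657, 670 and 671, against 12.04 and 13.4 CPM in Ttpa+/+ mice 698 and 699, a log2 fold of 1.80 ± 0.27. In NP1 neurons, non-peptidergic nociceptors of the skin, the levels were 25.4, 37.3, 21.7 and 29.2 CPM against 10.3 and 8.95 CPM, a log2 fold of 1.52 ± 0.24. Both types had low levels in Ttpa+/+ mice, and their groups were clear of each other. In NP2 neurons the levels were 27.3, 38.8, 33.9 and 43.5 CPM against 9.43 and 10.1 CPM, a log2 fold of 1.87 ± 0.32. NP2 was the only one of the 8 types in which mouse 671, and not mouse 657, was the highest.

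In TH neurons, which respond to gentle stroking of hairy skin, Wdfy1 stood at 16.5, 35.6, 23.0 and 25.4 CPM in Ttpa-/- mice 654, 657, 670 and 671, against 7.55 and 12.5 CPM in Ttpa+/+ mice 698 and 699. This gave the lowest log2 fold of the 8 types, 1.34 ± 0.30, and the narrowest gap between groups. It was 0.96 without mouse 657 and 1.71 without mouse 699. TRPM8 neurons gave the highest log2 fold and the least certain one, 2.01 ± 0.57, since their levels of 30.3, 68.9, 37.3 and 53.3 CPM against 14.7 and 9.37 CPM came from 5, 19, 7 and 17 Wdfy1 UMIs in Ttpa-/- mice and 4 and 3 UMIs in Ttpa+/+ mice.

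Every Ttpa-/- mouse was thus above both Ttpa+/+ mice in 8 of 8 types, with folds of 2.52 to 4.03 times and a median log2 fold of 1.70. The share of all tested genes with that order was 8.34% in PEP, 8.01% in NP3, 7.87% in PEP2, 5.4% in TRPM8, 8.14% in NF, 7.17% in NP2, 8.86% in NP1 and 6.76% in TH neurons. Of 4554 genes tested in all 8 types, 4 (0.0878%) had that order in every type: Wdfy1, Hsf2 (a heat shock transcription factor), Pam (the enzyme that amidates neuropeptides) and Cbx3 (a heterochromatin protein). Their median log2 folds over the types were 1.70 for Wdfy1, 0.76 for Hsf2, 0.75 for Pam and 0.44 for Cbx3. Wdfy1 was picked for this pattern, so the count describes it and does not support it. Whether the fold differed between types was not tested, because that difference rests on the contrast used in the choice, and the standard errors of the 8 folds were 0.21 to 0.57.

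Cells outside the 8 types gave values of the same kind. In the 3308 neurons that no gate took, Wdfy1 stood at 50.2, 71.7, 44.9 and 52.9 CPM in Ttpa-/- mice 654, 657, 670 and 671, against 14.2 and 12.8 CPM in Ttpa+/+ mice 698 and 699. In the 129 non-neuronal cells it had 2, 3, 5 and 5 UMIs in Ttpa-/- mice and 1 UMI in each Ttpa+/+ mouse, too few to place a level. Those cells had 3 or more markers of the macrophage, endothelial or fibroblast list, and they lay in the same droplet libraries. Free RNA from neurons and RNA of their own therefore cannot be told apart at that depth.

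Finer gates within NF and PEP neurons, added after the data were seen, kept the same direction of fold. In Pvalb NF neurons, the gate of muscle and large myelinated afferents, Wdfy1 stood at 12.8, 92.1, 45.5 and 73.6 CPM in Ttpa-/- mice 654, 657, 670 and 671, against 12.7 and 13.1 CPM in Ttpa+/+ mice 698 and 699. The groups overlapped there, since the 2 UMIs of mouse 654 put it between both Ttpa+/+ mice. In Calb1 NF neurons the levels were 29.5, 112, 39.2 and 58.1 CPM against 13.7 and 18.7 CPM. In Ntrk2 Colq NF neurons they were 36.0, 73.1, 28.0 and 20.7 CPM against 5.51 and 7.55 CPM, and in Ntrk3 NF neurons 26.5, 57.0, 26.8 and 36.9 CPM against 14.5 and 12.6 CPM. The groups did not overlap in these 3 gates, and the log2 folds were 1.91 ± 0.38, 2.36 ± 0.57 and 1.47 ± 0.32. The share of all genes with that order was not counted in the finer gates. Wdfy1 was chosen from this contrast, so nothing is read from the lack of overlap. Counts were small, with 2 and 4 Wdfy1 UMIs in Ntrk2 Colq neurons of Ttpa+/+ mice 698 and 699. Calb1 neurons of mouse 654 had 4.

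Among PEP neurons, those with Fgg and Tac1 held most of the Wdfy1 UMIs, at 77.1, 133, 85.7 and 84.7 CPM in Ttpa-/- mice 654, 657, 670 and 671, against 27.7 and 19.9 CPM in Ttpa+/+ mice 698 and 699. PEP neurons with Sstr2 and Adcyap1 had the highest Ttpa+/+ levels of any gate, 39.5 and 38.9 CPM, from 7 and 6 UMIs. The exact 95% intervals were 15.9 to 81.4 and 14.3 to 84.6 CPM, so counting error leaves this rank open. These neurons had 51.4, 124, 97.1 and 86.9 CPM in Ttpa-/- mice. Their log2 fold was 1.19 ± 0.51, against 1.95 ± 0.22 in the Fgg and Tac1 gate, and the difference was not tested. In Chrna3 neurons, the gate of silent nociceptors, the levels were 67.2, 102, 43.0 and 55.9 CPM against 23.8 and 13.2 CPM, from 2 to 19 UMIs a mouse.

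The 2 diets of Ttpa-/- mice could not be separated by Wdfy1. Over all neurons deficient mice averaged 50.8 ± 20.5 CPM and supplemented mice 41.8 ± 6.84 CPM (SD, n = 2 each), and both supplemented mice lay between the 2 deficient ones. The log2 difference, deficient minus supplemented, was 0.31 with a 95% interval of -0.19 to 0.82 (edgeR quasi-likelihood test, adjusted p = 0.999 over 13364 genes). None of the 13364 genes passed in that comparison (0% at adjusted p under 0.05), and Wdfy1 passed under none of 15 alternatives, DESeq2 and limma-voom among them (lowest adjusted p = 0.685, without mouse 654).

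Within types the diet difference was positive in 7 of 8 and the diet groups overlapped in each of the 8. It was largest in NF neurons, at 0.47 (95% interval -0.08 to 1.02), where deficient mice had 28.8 and 73.5 CPM and supplemented mice 31.2 and 44.7 CPM. It was negative in NP2 neurons, at -0.21 (-0.79 to 0.37), where deficient mice had 27.3 and 38.8 CPM and supplemented mice 33.9 and 43.5 CPM. No adjusted p of the 8 types was under 0.964, with 0.0201% of genes called in NP1 neurons, 0.0109% in PEP2 neurons and 0% in the others. The upper bounds pass 1 on the log2 scale in NF neurons and in TRPM8 neurons (-0.90 to 1.27), so these data do not show that the diets gave equal levels. The sign rested on mouse 657: without it the difference was -0.20 over all neurons. Of the 7 finer gates, untested for diet, only those of Ntrk2 Colq NF and Chrna3 PEP neurons had no overlap between diets. The share of all genes without such overlap was not counted, and with 2 mice per diet nothing is read from it. In Pvalb NF and in Sstr2 Adcyap1 PEP neurons the log2 difference was -0.03 ± 0.44 and -0.02 ± 0.55. Ntrk2 Colq neurons had 36.0 and 73.1 CPM in deficient mice and 28.0 and 20.7 CPM in supplemented mice (log2 difference 1.26 ± 0.49), from 7 to 26 UMIs a mouse. Chrna3 neurons had 67.2 and 102 CPM in deficient mice and 43.0 and 55.9 CPM in supplemented mice (0.75 ± 0.58), from 3 to 19 UMIs a mouse.

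**Figure D2:**
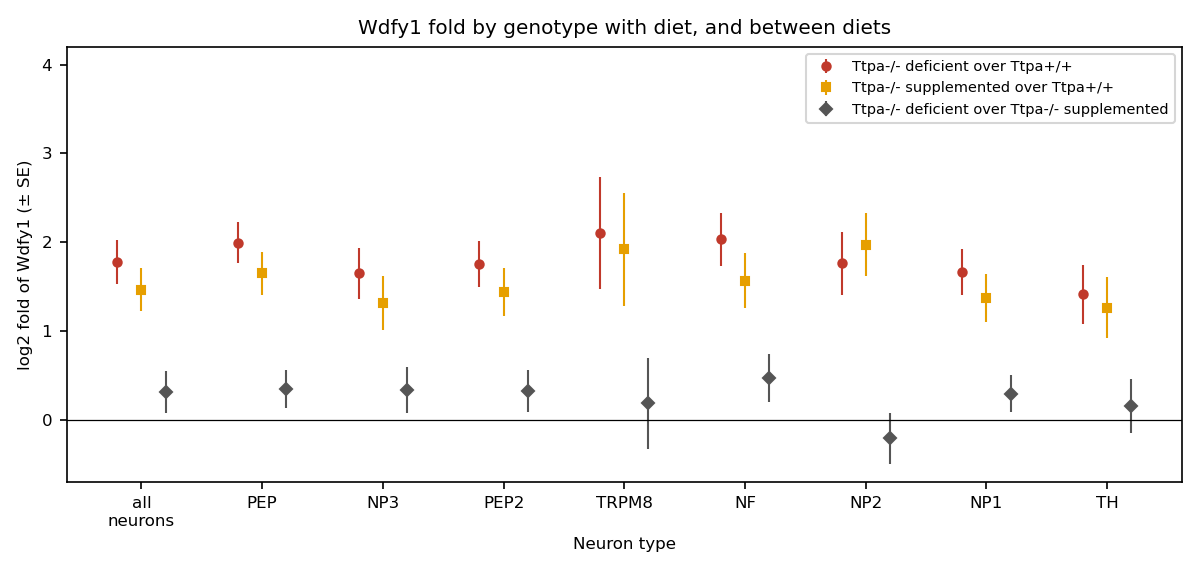
Log2 fold of Wdfy1 (vertical axis, ± SE) in all neurons and in each gated type (horizontal axis), for each Ttpa-/- diet group over Ttpa+/+ and for deficient over supplemented Ttpa-/- mice. Both diet groups lie well above 0 against Ttpa+/+ mice (1.78 and 1.47 over all neurons). The points between diets run from -0.21 to 0.47 over the types (0.31 over all neurons). The 2 upper series share the Ttpa+/+ mice.

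Set against the same 2 Ttpa+/+ mice, the log2 fold over all neurons was 1.78 ± 0.24 in deficient mice and 1.47 ± 0.24 in supplemented mice. In PEP neurons the 2 folds were 1.99 ± 0.23 and 1.65 ± 0.24, in NF neurons 2.03 ± 0.30 and 1.56 ± 0.31, and in NP2 neurons 1.76 ± 0.36 and 1.97 ± 0.36, again deficient first. In these values Wdfy1 was thus higher than in Ttpa+/+ mice on both diets, which does not show that the diets gave equal levels. The shared Ttpa+/+ mice make the 2 folds depend on each other.

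Wdfy1 levels also differed widely between neuron types. Averaged over the 6 mice, the order was PEP (68.9 CPM), NP3 (54.9), PEP2 (49.8), TRPM8 (35.7), NF (34.0), NP2 (27.2), NP1 (22.1) and TH (20.1). Peptidergic nociceptors and the Sst and Nppb itch neurons thus carried the highest Wdfy1 CPM, and the Mrgprd nociceptors and C-fibre mechanoreceptors the least. PEP ranked first in 5 of 6 mice and second to NP3 in mouse 699.

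Neighbours in this order were often within the spread over mice. PEP was above NP3 in 5 of 6 mice (mean log2 ratio 0.27 ± 0.23, SD), and NP3 above PEP2 in 5 of 6 (0.13 ± 0.16). PEP2 was above TRPM8 in 6 of 6 mice (0.59 ± 0.26), which made this step the clearest break between neighbours. TRPM8 against NF (0.04 ± 0.31), NF against NP2 (0.28 ± 0.37), NP2 against NP1 (0.24 ± 0.30) and NP1 against TH (0.13 ± 0.39) all differed by less than the SD over mice.

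Against the mean of the other 7 types, with mouse as a block (edgeR quasi-likelihood test, adjusted over 10473 genes), Wdfy1 was higher in PEP neurons by 0.998 ± 0.081 on the log2 scale (adjusted p = 1.88e-18), in NP3 neurons by 0.76 ± 0.10 (adjusted p = 1.47e-10) and in PEP2 neurons by 0.48 ± 0.09 (adjusted p = 3.02e-06), each in 6 of 6 mice. It was lower in TH neurons (-0.87 ± 0.09, adjusted p = 3.37e-13), NP1 neurons (-0.64 ± 0.09, adjusted p = 5.74e-10) and NP2 neurons (-0.39 ± 0.12, adjusted p = 0.00454), each in 6 of 6 mice. The NP2 call rested on mouse 657, without which the difference was -0.24 (adjusted p = 0.180). TRPM8 (-0.15 ± 0.19, adjusted p = 0.674) and NF neurons (-0.18 ± 0.09, adjusted p = 0.0710) did not pass. NF neurons did pass without mouse 657 (-0.30, adjusted p = 0.00768) and with types taken from clusters (-0.36, adjusted p = 6.54e-05). Types differ in most genes: the share of genes called was 62.8% for PEP, 59.9% for NP3, 60.5% for PEP2, 70% for TH, 72.2% for NP1 and 50.2% for NP2, against 22.3% for TRPM8 and 75.8% for NF, so passing this test does not set Wdfy1 apart. By size, its PEP difference was above those of 89.9% of genes and its TH difference above those of 14.0%.

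**Figure D3:**
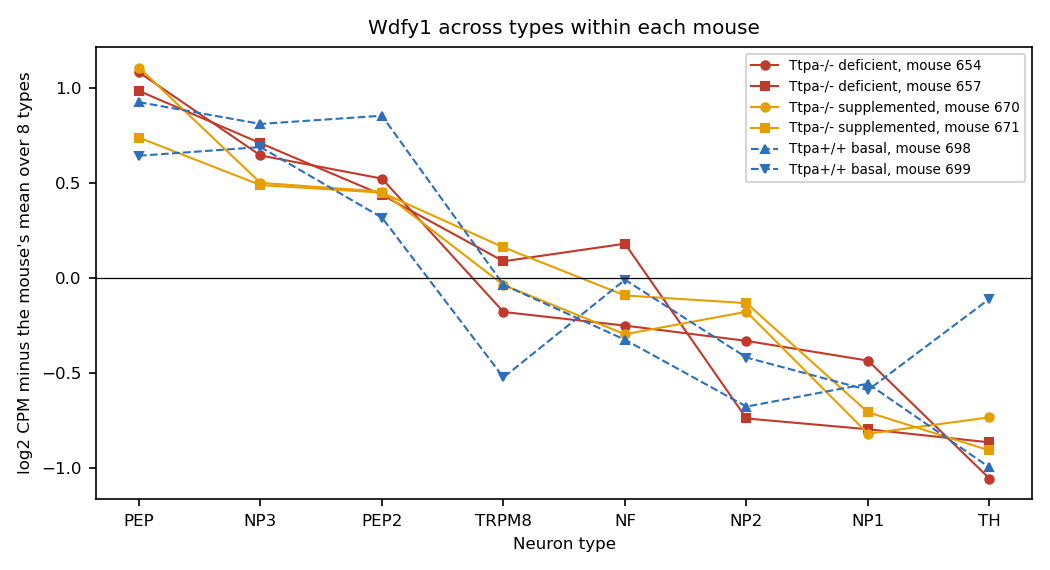
Log2 CPM of Wdfy1 in each type minus the same mouse's mean over the 8 types (vertical axis), with types ordered by their mean level (horizontal axis) and 1 line per mouse. The 4 Ttpa-/- lines and the 2 dashed Ttpa+/+ lines fall together from PEP to TH; the 2 points farthest from the rest are those of mouse 699 in TRPM8 and TH neurons.

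The order of types was much the same in both genotypes. In Ttpa-/- mice the means ran from 90.9 ± 25.4 CPM in PEP to 25.1 ± 7.92 CPM in TH neurons (SD, n = 4), and in Ttpa+/+ mice from 24.9 ± 5.39 CPM in PEP to 9.60 ± 0.92 CPM in NP1 neurons (SD, n = 2). In tests on Ttpa+/+ mice alone PEP (0.84, adjusted p = 0.000875), NP3 (0.88, adjusted p = 0.00440), PEP2 (0.55) and TH (-0.55) still passed, while NP1 (-0.44, adjusted p = 0.140) and NP2 (-0.51, adjusted p = 0.287) did not. Over the 48 sums of 8 types in 6 mice, mouse took 66.0% of the sum of squares of log2 CPM, type took 30.1% and the remainder was 3.93%, so a level for the mouse and a level for the type described nearly all of the variation.

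The order by type depended on counting as CPM, since types differ in the RNA captured per cell. PEP cells had medians of 1544 to 2913 UMIs over the 6 mice and NP1 cells 4578 to 9979.5 UMIs. Counted as Wdfy1 UMIs per 100 cells, a measure added after the data were seen, PEP2 came first with a mean over mice of 24.7, followed by NF (20.9), NP3 (20.02), PEP (18.7), NP1 (16.2), NP2 (15.9), TRPM8 (15.9) and TH (8.71). TH neurons were lowest on both scales, and PEP neurons were first on 1 of them only. Within a mouse, pooled over types that differ in depth and level, the shallower cells had the higher levels. Over all neurons, cells above the mouse's median depth had 29.99, 53.7, 29.3 and 38.9 CPM in Ttpa-/- mice 654, 657, 670 and 671, and cells below it 52.7, 98.2, 59.1 and 68.3 CPM. In Ttpa+/+ mice 698 and 699 the deeper cells had 12.9 and 13.03 CPM and the shallower ones 22.7 and 17.5 CPM, so the shallower cells were higher in 6 of 6 mice. Within types the deeper cells were the higher ones in 2 to 5 of 8 types per mouse. In PEP2, NP1 and TH neurons they were the lower ones in all 4 Ttpa-/- mice, as in PEP2 neurons, with 35.9, 71.4, 37.9 and 58.2 CPM in deeper cells of mice 654, 657, 670 and 671 and 87.8, 135, 95.8 and 86.7 CPM in shallower ones. In Ttpa+/+ mice these types were mixed. Deeper TH cells were higher in mice 698 and 699 (8.42 and 13.1 CPM, against 5.62 and 11.4 CPM in shallower ones). Deeper NP1 and PEP2 cells were higher in mouse 698 and lower in mouse 699. The part of depth in the levels was not tested further.

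Per cell, the genotypes were also less clear of each other. Depth differed by mouse too, and its part in this was not tested. Wdfy1 UMIs per 100 PEP cells were 15.3, 44.9, 16.0 and 21.6 in Ttpa-/- mice 654, 657, 670 and 671 and 8.15 and 6.58 in Ttpa+/+ mice 698 and 699. In NF neurons they were 10.2, 59.8, 10.3 and 26.8 against 7.74 and 10.8, and in TH neurons 5.33, 19.6, 7.56 and 9.67 against 4.23 and 5.83, so the groups overlapped in those 2 types. NF cells had a median of 3194 UMIs in mouse 654 and 2986 in mouse 670, against 6015 and 7401 UMIs in mice 698 and 699.

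**Figure D4:**
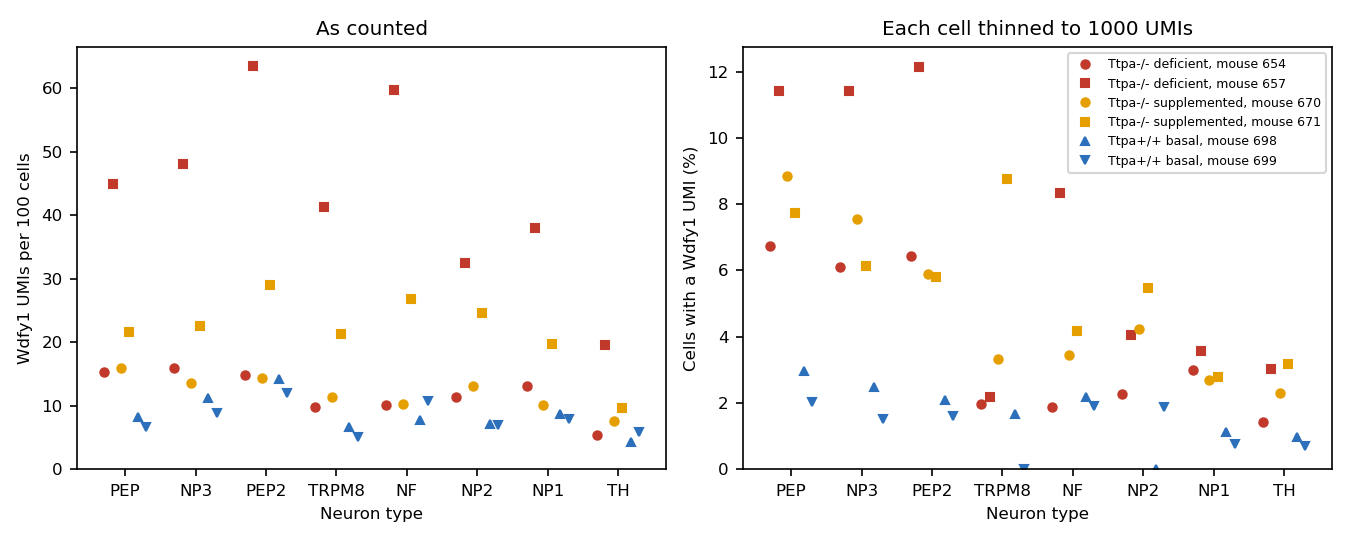
Left, Wdfy1 UMIs per 100 cells as counted; right, the percentage of cells with a Wdfy1 UMI after each cell was thinned to 1000 UMIs (vertical axes), by type (horizontal axes) with 1 point per mouse. At equal depth the highest shares are those of mouse 657 in PEP, NP3 and PEP2 neurons (11.4%, 11.4% and 12.1%), and the 2 genotypes overlap in NF neurons.

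The share of neurons with a Wdfy1 UMI was 11.3%, 32.6%, 10.6% and 18.2% in Ttpa-/- mice 654, 657, 670 and 671, against 7.37% and 7.60% in Ttpa+/+ mice 698 and 699. With each cell thinned to 1000 UMIs, which left out 127 cells of mouse 670 and none of the other mice, the shares were 4.198%, 7.23%, 4.80% and 5.37% against 1.90% and 1.48%. The thinned shares in Ttpa-/- mice lay above both Ttpa+/+ shares in all types except NF, where mouse 654 had 1.87% against 2.167% and 1.903%. In TRPM8 and NP2 neurons the thinned counts went down to 0 cells, and no order is read from them. For the other types the order is a description. Wdfy1 was chosen from this contrast, and the share of all genes with that order was not counted at this depth. Over 2426 Ttpa-/- neurons with a Wdfy1 UMI, 351 held 2 or more, and over 496 such Ttpa+/+ neurons, 25 did. No neuron type here is known to lack Wdfy1, so a background share of free RNA could not be set.

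Depth and other cells' transcripts were looked at beside the genotype difference. Median depth per neuron was 2854.5, 4947.5, 2520 and 3477 UMIs in Ttpa-/- mice 654, 657, 670 and 671 and 4029.5 and 4311 UMIs in Ttpa+/+ mice 698 and 699. With the sums of all mice thinned to the smallest, the log2 fold over all neurons was 1.64. Of 9 marker lists of other cell types and of neurons, the erythroid list alone did not overlap between genotypes: its 4 markers, all detected in every mouse, summed to 115, 56.2, 223 and 38.6 CPM in Ttpa-/- mice 654, 657, 670 and 671, against 8.49 and 37.4 CPM in Ttpa+/+ mice 698 and 699. The part of these transcripts in the Wdfy1 difference was not tested.

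The genes next to Wdfy1 on chromosome 1 had log2 folds between -0.56 and 0.51, against 1.62 for Wdfy1. None of the 20 nearest tested genes, 10 on either side and all within 4140 kb, passed at adjusted p under 0.05 (edgeR; 0% of 13364 genes passed), under DESeq2, where 9 of 11291 genes with an adjusted p passed, or under limma-voom. Any 20 genes would have given that count in edgeR, so it says little about these. At an unadjusted p under 0.05 there were 2 of 20 (10%), against 4.56% of all genes. Of the 20, 9 were higher in Ttpa-/- mice, and their median log2 fold was -0.06, against -0.01 over all genes. The next gene on the 5' side, Mrpl44, had a log2 fold of -0.03 ± 0.12 (adjusted p = 0.999), and the next on the 3' side, Ap1s3, a subunit of a clathrin adaptor, had 0.10 ± 0.28 (adjusted p = 0.999).

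The 3 neighbours with the smallest p differed in direction. Epha4, an axon guidance receptor, had 2.86, 3.79, 3.90 and 4.85 CPM in Ttpa-/- mice 654, 657, 670 and 671, against 4.34 and 6.79 CPM in Ttpa+/+ mice 698 and 699 (log2 fold -0.56 ± 0.23, adjusted p = 0.999). Serpine2, a secreted protease inhibitor, had 6.70, 4.19, 9.46 and 11.1 CPM against 5.88 and 4.42 CPM (0.51 ± 0.21, adjusted p = 0.999). Cul3, a ubiquitin ligase scaffold, had 93.7, 96.8, 96.8 and 115 CPM against 121 and 110 CPM (-0.23 ± 0.11, adjusted p = 0.999). All 3 overlapped between genotypes. Over all genes 6.37% had every Ttpa-/- mouse above both Ttpa+/+ mice. Wdfy1 was chosen from this contrast, so its own lack of overlap is no measure for its neighbours.

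**Figure D5:**
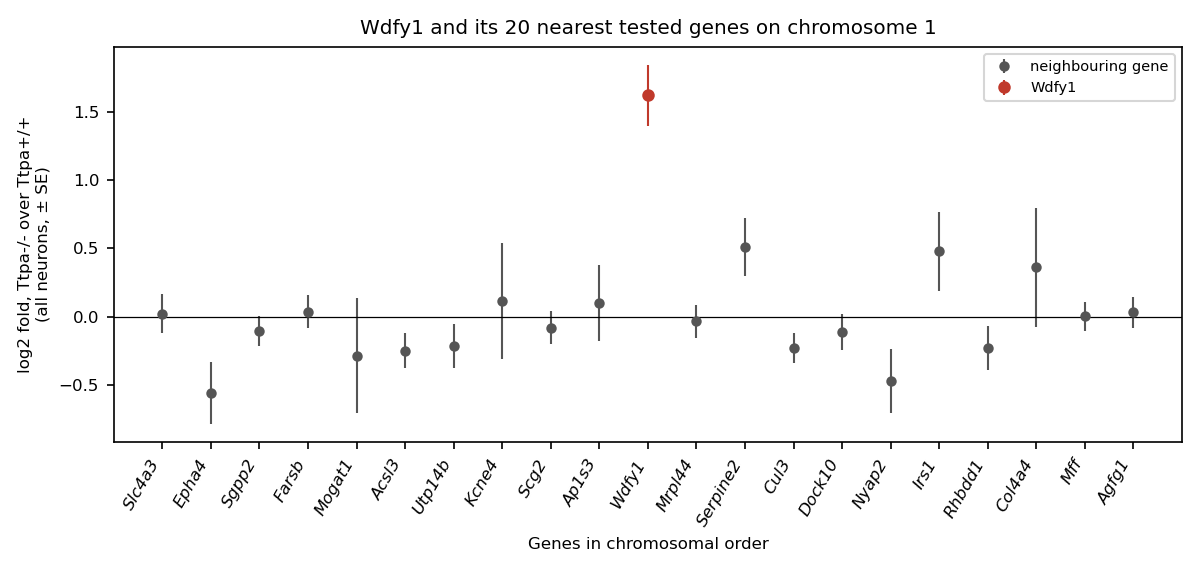
Log2 fold of Ttpa-/- over Ttpa+/+ mice in all neurons (vertical axis, ± SE) for Wdfy1 and the 20 nearest tested genes in chromosomal order (horizontal axis). Wdfy1 lies at 1.62, and the neighbours lie between -0.56 and 0.51.

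Of the other members of its family, Wdfy3, a large scaffold protein of selective autophagy, was abundant enough to test. It stood at 109, 111, 113 and 122 CPM in Ttpa-/- mice 654, 657, 670 and 671 and at 120 and 119 CPM in Ttpa+/+ mice 698 and 699 (log2 fold -0.10 ± 0.10, adjusted p = 0.999). Wdfy2 had 3 to 8 UMIs in Ttpa-/- mice and 6 and 8 in Ttpa+/+ mice, and Wdfy4 had 2 to 5 UMIs against 6 in each, both too few to test.

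Genes of the endosome pathway that Wdfy1 belongs to showed no shared difference. Of 57 genes of FYVE domain proteins and of the making, breaking and reading of phosphatidylinositol 3-phosphate, 52 could be tested in all neurons, none passed at adjusted p under 0.05 (edgeR, DESeq2 or limma-voom), and 1 (1.92%) had an unadjusted p under 0.05, against 4.56% of all genes. Few genes of any kind passed there: 0 of 13364 in edgeR and in limma-voom, and 9 of 11291 in DESeq2. Of the 52, 22 (42.3%) were higher in Ttpa-/- mice, and the median log2 fold was -0.02, against 46.7% and -0.01 over all genes. That 1 gene was Mtmr2, a phosphatase that removes the phosphate FYVE domains recognise. It had 31.8, 32.4, 31.1 and 35.4 CPM in Ttpa-/- mice 654, 657, 670 and 671, against 27.0 and 23.9 CPM in Ttpa+/+ mice 698 and 699 (0.34 ± 0.12, adjusted p = 0.999).

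Mtmr2 was above both Ttpa+/+ mice in every Ttpa-/- mouse in all neurons and in 5 of the 8 types. That order held for 6.37% of all genes in all neurons and for 5.4% to 8.86% by type. Mtmr2 was named for its small p in this contrast and the types share the same mice, so the count adds no support. The other members with the smallest p were Zfyve1 (0.53 ± 0.28), a marker protein of autophagosome-forming membranes, and Rbsn (0.21 ± 0.14), a Rab effector of early endosomes. On the lower side they were Mtmr4 (-0.23 ± 0.14), another FYVE phosphatase, Vps26a (-0.17 ± 0.11), a retromer subunit, and Eea1 (-0.14 ± 0.11), the early endosome tether. All 5 had an adjusted p of 0.999. In all neurons the largest of these log2 folds was 0.53, against 1.62 for Wdfy1.

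By type, no endosome gene passed at adjusted p under 0.05. The share of all genes that passed was 0.181% in NP1, 0.0382% in NP2, 0.0381% in NP3, 0.0316% in PEP, 0.0435% in PEP2, 0.01% in NF and 0% in TH and TRPM8 neurons. At an unadjusted p under 0.05 there were 3 of 49 endosome genes in PEP neurons, against 4.4% of all genes, namely Mtmr2, Rab5b, a GTPase of early endosomes, and Snx1, a sorting nexin. There was 1 of 49 in NP1 neurons (5.66% of all genes), 1 of 45 in NP2 (3.62%), 1 of 49 in TH (2.82%), 1 of 23 in TRPM8 (2.65%) and 1 of 46 in PEP2 neurons (3.8%), and none of 44 in NP3 (3.31%) or of 48 in NF neurons (3.22%). The 1 gene was Mtmr2 in NP1, TH and PEP2 neurons. In PEP neurons Mtmr2 had 43.1, 44.7, 42.3 and 44.3 CPM in Ttpa-/- mice 654, 657, 670 and 671, against 33.7 and 23.2 CPM in Ttpa+/+ mice 698 and 699 (0.57 ± 0.20, adjusted p = 0.752).

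Genes from TLR3 and TLR4 to TRIF, the route for which Wdfy1 is known as an adaptor, did not pass either. Of 30 genes, 27 could be tested, none passed at adjusted p under 0.05 (edgeR, DESeq2 or limma-voom), and none had an unadjusted p under 0.05. Over all genes 0 of 13364 passed in edgeR and in limma-voom and 9 of 11291 in DESeq2, so this count says little about the list. Of the 27, 16 (59.3%) were higher in Ttpa-/- mice, with a median log2 fold of 0.07, against 46.7% of all genes and a median of -0.01. The smallest p on the higher side were those of Myd88 (0.58 ± 0.28), the adaptor of the parallel route, Tnfaip3 (0.40 ± 0.21), an inhibitor of NF-kappaB signalling, and Rela (0.29 ± 0.16), an NF-kappaB subunit. On the lower side they were those of Traf6 (-0.31 ± 0.19), Ripk1 (-0.36 ± 0.24) and Tank (-0.17 ± 0.13), all signalling proteins downstream of the receptors. Each had an adjusted p of 0.999. By type, 2 of 20 tested members in NP1 neurons and 1 of 17 in TH neurons had an unadjusted p under 0.05, against 5.66% and 2.82% of all genes in those types, and none did in the other 6 types. In NP1 neurons they were Rela (0.77 ± 0.30, adjusted p = 0.731) and Nfkbia (0.60 ± 0.22, adjusted p = 0.657), the inhibitor that holds NF-kappaB in the cytoplasm.

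Interferon-stimulated genes, the far end of that route, were higher on balance in Ttpa-/- mice but none passed at adjusted p under 0.05 (edgeR, DESeq2 or limma-voom). Among all genes, 0 of 13364 passed in edgeR and in limma-voom, and 9 of 11291 in DESeq2. Of 26 genes, 22 could be tested in all neurons and 3 (13.6%) had an unadjusted p under 0.05, against 4.56% of all genes. Of the 22, 18 were higher in Ttpa-/- mice, with a median log2 fold of 0.18, against 46.7% of all genes and a median of -0.01. The 3 were Ifitm3 (0.59 ± 0.19, adjusted p = 0.966), a membrane protein that blocks virus entry, Ccl5 (1.35 ± 0.49, adjusted p = 0.999), a chemokine, and Ifit2 (0.47 ± 0.20, adjusted p = 0.999), which binds foreign RNA.

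Ifitm3 had 10.4, 6.11, 14.7 and 14.6 CPM in Ttpa-/- mice 654, 657, 670 and 671, against 7.42 and 6.84 CPM in Ttpa+/+ mice 698 and 699. Mouse 657, the highest in Wdfy1, was the lowest in Ifitm3. Ccl5 was near the limit of counting, with 0.602, 0.396, 0.995 and 0.871 CPM against 0.238 and 0.269 CPM. On the lower side the members with the smallest p were Ifi35 (-0.18 ± 0.14), Ddx58 (-0.05 ± 0.13) and Lgals3bp (-0.02 ± 0.13), each with an adjusted p of 0.999.

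Counts of the interferon list by type rest on 4 to 19 tested members, and no difference between types was tested. In PEP2 neurons 15 of 15 tested members were higher in Ttpa-/- mice (median log2 fold 0.27) and 5 of them (33.3%) had an unadjusted p under 0.05, against 49.0% and 3.8% of all genes there. In PEP neurons 5 of 16 were higher (median -0.08) and none was under that limit, against 49.0% and 4.4% of all genes. None passed at adjusted p under 0.05 in any of the 8 types. The 5 genes in PEP2 neurons, named here after their values were seen, were Rsad2, Irf9, H2-K1, Bst2 and Ifit1. Rsad2, an antiviral enzyme, had 8.86, 9.87, 13.7 and 10.97 CPM in Ttpa-/- mice 654, 657, 670 and 671, against 6.66 and 2.99 CPM in Ttpa+/+ mice 698 and 699 (log2 fold 1.23 ± 0.41, adjusted p = 0.995). Rsad2 and Irf9 had every Ttpa-/- mouse above both Ttpa+/+ mice, as did 7.87% of all genes there. H2-K1, Bst2 and Ifit1 overlapped, since only Ttpa+/+ mouse 699 lay below all Ttpa-/- mice. Ifit1 had 68.3, 58.8, 46.2 and 41.8 CPM in the Ttpa-/- mice, against 56.6 and 20.2 CPM in mice 698 and 699.

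Likeness to Wdfy1 was measured as Pearson's r of log2 CPM over the 48 sums of types and mice, among 6797 genes, as a description: the sums share mice, libraries and depth. Over all sums the 5 most alike genes were Hsf2 (r = 0.742), Lrrc8a (0.739), a subunit of the volume-regulated anion channel, Gsk3b (0.727), a kinase, Slc39a1 (0.668), a zinc transporter, and Cbx3 (0.661). With the mean of each type taken off, so that the mice alone differ, they were Gnb1 (0.776), a G protein subunit, Hsf2 (0.750), Actb (0.741), the cytoskeletal actin, Gsk3b (0.741) and Cbx3 (0.739). Both sets follow the genotype contrast that chose Wdfy1.

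None of those genes had the size of the Wdfy1 difference. Hsf2 stood at 66.6, 67.0, 63.1 and 90.5 CPM in Ttpa-/- mice 654, 657, 670 and 671, against 46.5 and 38.8 CPM in Ttpa+/+ mice 698 and 699, a log2 fold of 0.73 ± 0.15. Its highest mouse was 671, not 657. Slc39a1 had 19.95, 16.5, 18.9 and 22.1 CPM against 10.9 and 7.49 CPM, a log2 fold of 1.05 ± 0.17.

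With the mean of each mouse taken off, so that the types alone differ, the most alike genes were others: Ywhab (r = 0.919), a 14-3-3 protein, Rab10 (0.891) and Rap1b (0.888), small GTPases, Dcaf12l1 (0.881) and Mid1ip1 (0.878). Ywhab stood at 1305, 1343, 1322 and 1479 CPM in PEP neurons of Ttpa-/- mice 654, 657, 670 and 671, against 1361 and 1385 CPM in Ttpa+/+ mice 698 and 699. In TH neurons it stood at 635, 651, 601 and 737 CPM against 668 and 728 CPM. Its genotypes overlapped in both types, and its log2 fold over all neurons was -0.12 ± 0.11 (adjusted p = 0.999), so the gene with the most similar pattern over types did not have the genotype difference of Wdfy1.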

How the data were processed

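UMI counts per gene and cell were used as the authors deposited them. Per the labels' protocols they came from droplet 3' v2 libraries; per the submitters' processing notes bcl2fastq 2.17.1.14, Cell Ranger 2.0.1, Seurat 2.3.0 and limma 3.32.10 were used, with mm10. Counting 3' ends gives no account of transcript forms.

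Wdfy1, the gene lists and the markers were chosen with earlier results of these data known; the gate thresholds were set after the cells were seen. Cells needed 500 detected genes and no more than 20% of counts from mitochondrial transcripts (27 failed), and 634 doublets (2.93%) called by scanpy 1.11.5 were removed. A neuron had 3 or more of 13 pan-neuronal markers and took the type with the highest marker score, if the score and its lead were 0.2 or more; 1431 neurons (6.85%) lay within 0.05 of a limit. Counts were summed per mouse and type. edgeR 4.0.16 (TMM, filterByExpr, quasi-likelihood F test, 3 group means over the 6 mice; types with mouse as a block) gave folds and p, adjusted by Benjamini-Hochberg over all genes, with a threshold of 0.05. The scripts were tested on simulated data. Named list genes were up to 3 per direction with the smallest p; for neighbours, the 3 smallest p; for likeness, the 5 highest r. Poisson and binomial intervals are exact, at 95%. Alternatives included DESeq2 1.42.0 and limma-voom 3.58.1, RLE scaling, no filter, a sex term, each mouse left out, thinning, other cell filters and Leiden clusters as types.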

Additional observations from a re-analysis of the deposited data

How the results depend on the processing

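The genotype fold of Wdfy1 over all neurons kept its direction under all 15 alternatives, from 1.37 without mouse 657 to 1.81 without mouse 654, and in 8 of 8 types all Ttpa-/- mice stayed above both Ttpa+/+ mice with doublets kept, with a stricter cell filter and with thinned sums; with types from clusters, where NP2 and TRPM8 had no named cluster, this held in 6 of 6. These 4 checks of overlap were added after the data were seen. The diet difference never passed the threshold, and its sign turned when a mouse was left out: it ran from -0.20 to 0.68 over all neurons, -0.021 to 0.56 in NP1, -0.57 to 0.053 in NP2, -0.22 to 0.81 in NP3, -0.57 to 0.57 in TH, -0.58 to 0.56 in TRPM8, -0.19 to 0.70 in PEP, -0.30 to 0.61 in PEP2 and -0.46 to 0.92 in NF neurons. It was below 0 without mouse 657 in all of them. Among the tests between types, NP2 no longer passed when mouse 657 was left out (-0.24, adjusted p = 0.180) or in Ttpa+/+ mice alone (-0.51, adjusted p = 0.287), NP1 did not pass in Ttpa+/+ mice alone (-0.44, adjusted p = 0.140), and NF passed without mouse 657 (-0.30, adjusted p = 0.00768) and with types from clusters (-0.36, adjusted p = 6.54e-05); the cause was not tested. At 1000 UMIs a cell the gap between genotypes in the share of cells with a Wdfy1 UMI shrank in all 8 types: to 3.71 percentage points, against 10.7 unthinned, over all neurons, and to 6.19 (14.0) in PEP, 5.80 (12.1) in NP3, 5.72 (12.01) in PEP2, 3.22 (11.7) in TRPM8, 3.06 (11.4) in NP2, 2.42 (13.1) in NF, 2.08 (9.90) in NP1 and 1.64 (4.55) in TH neurons. Thinning takes UMIs from the cells and so lowers the shares of both genotypes. A smaller gap in percentage points follows from lower shares, and it does not show a weaker genotype difference at equal depth. The 4 list counts were 0 under all 11 alternatives. Over all genes 121 of 19323 passed with no filter on low counts, 9 of 11291 in DESeq2 and 3 of 13364 with a sex term. With RLE scaling and limma-voom 0 passed, so a count of 0 says little about any list. No paired analysis was possible because the groups share no replicate numbers. With 4 and 2 mice per genotype and 3 to 224 Wdfy1 UMIs per type and mouse, depth limits TRPM8 most.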
